A study of Mus musculus with 8 samples.

Results

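The genes described here are 40 transcripts of dividing cells, 18 of DNA replication and 22 of mitosis, taken by symbol from a table of 55450 genes. They were chosen by function, and all 40 were found and tested. RNA was sequenced from cells enriched for c-Kit, a growth factor receptor of blood cell precursors, mast cells and the melanocyte lineage, out of B16F10 tumours. B16F10 is a pigmented mouse melanoma line. Wild-type C57BL6 mice of 6 weeks, matched for age and sex, carried 150000 injected cells under the skin until day 17, and the tumours were digested with liberase and DNase, freed of red cells and enriched on magnetic beads. The 4 libraries of the Scramble group came from tumours of Scramble B16F10 cells, and the 4 of the PERK_KO group from tumours of B16F10 cells lacking PERK, the stress kinase that lowers protein synthesis when misfolded protein builds up in the endoplasmic reticulum. The hosts were wild type in both groups, so the deletion lay in the injected cells. The labels do not state whether the PERK_KO line is 1 clone, how it was made, or how many mice the tumours came from, so p-values measure the spread between these tumours only.

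A cell that is about to divide first loads the Mcm2 to Mcm7 helicase onto its replication origins with the help of Cdc6 and Cdt1, then opens the origins, primes both strands and copies them around the sliding clamp Pcna, drawing on deoxynucleotides made by ribonucleotide reductase. Mitosis follows under Cdk1 with its B cyclins and under the Polo and Aurora kinases, while checkpoint kinases hold back the anaphase promoting complex until the spindle has caught every chromosome. The replication genes are classically switched on by E2F factors at the start of S phase. The mitosis genes follow later, by MuvB complexes with B-Myb and Foxm1 that act through the cell cycle homology region (CHR). CCAAT boxes often lie near the CHR.

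Promoter letters are shown for members of each list because the lists differed in these elements. The windows, from RefSeq on GRCm38.p6, run from 250 bases before to 50 after an annotated start, and 15 of 18 replication and 16 of 22 mitosis members matched one by symbol. E2F elements (TTTCCCGC, TTTGGCGC, TTTCGCGC or TTTGCCGC on either strand) were in the windows of 7 of 15 replication members and 1 of 16 mitosis members, Cdk1, against 2.60% of 27025 genes. CHR elements (TTTGAA or TTCGAA) were in 2 of 15 and 13 of 16, against 21.7% of genes. CCAAT boxes (CCAAT) were in 10 of 15 and 15 of 16, against 41.1% of genes. Over all 32851 windows the shares were 2.26%, 19.2% and 37.4%. These are matches of letters, they may overlap each other, and no binding was measured. Printed below, 5′ to 3′ on the gene's strand with each matched element in capitals, are up to 200 bases before the start of the 3 members of each list with the smallest p that held an element; Ccnb1 stops after 116 bases, where its longer annotated transcript begins.
Rrm1: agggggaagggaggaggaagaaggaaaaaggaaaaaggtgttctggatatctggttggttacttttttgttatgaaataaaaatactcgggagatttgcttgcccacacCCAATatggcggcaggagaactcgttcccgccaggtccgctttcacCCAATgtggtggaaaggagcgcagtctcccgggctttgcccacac
Mcm3: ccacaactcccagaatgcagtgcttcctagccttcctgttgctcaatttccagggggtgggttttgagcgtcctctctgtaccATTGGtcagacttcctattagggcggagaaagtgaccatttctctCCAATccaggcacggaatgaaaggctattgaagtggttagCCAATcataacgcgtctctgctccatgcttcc
Pola1: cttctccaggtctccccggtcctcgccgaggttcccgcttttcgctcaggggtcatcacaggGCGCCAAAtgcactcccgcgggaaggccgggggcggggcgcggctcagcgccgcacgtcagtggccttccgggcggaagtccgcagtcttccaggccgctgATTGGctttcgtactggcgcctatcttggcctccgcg
Plk1: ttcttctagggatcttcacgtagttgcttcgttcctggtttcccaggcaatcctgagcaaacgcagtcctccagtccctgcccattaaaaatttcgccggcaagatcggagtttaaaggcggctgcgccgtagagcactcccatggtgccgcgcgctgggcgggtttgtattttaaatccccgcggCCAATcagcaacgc
Bub1b: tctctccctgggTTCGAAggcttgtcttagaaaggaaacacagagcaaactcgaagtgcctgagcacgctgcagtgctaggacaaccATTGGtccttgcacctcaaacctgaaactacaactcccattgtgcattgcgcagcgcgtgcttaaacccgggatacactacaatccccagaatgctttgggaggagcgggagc
Ccnb1: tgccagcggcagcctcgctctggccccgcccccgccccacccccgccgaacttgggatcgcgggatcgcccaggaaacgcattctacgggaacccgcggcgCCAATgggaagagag
Their positions are chr7:102441495-102441694 on the plus strand, chr1:20820313-20820512 on the minus strand, chrX:93632156-93632355 on the minus strand, chr7:122159235-122159434 on the plus strand, chr2:118598011-118598210 on the plus strand and chr13:100786571-100786686 on the minus strand. Rrm1 held CCAAT boxes only, and Pola1 held an E2F element 138 bases before its start. The E2F elements of Mcm3 and the CHR element of Plk1 lay after the start and are not shown. Mcm6 and Cdk1 were added after their matches were seen. Mcm6 has 3 E2F matches, a pair of them overlapping. Cdk1 is the exception of its list, the only 1 of 16 mitosis members with an E2F element. It also has a CHR element and CCAAT boxes.
Mcm6: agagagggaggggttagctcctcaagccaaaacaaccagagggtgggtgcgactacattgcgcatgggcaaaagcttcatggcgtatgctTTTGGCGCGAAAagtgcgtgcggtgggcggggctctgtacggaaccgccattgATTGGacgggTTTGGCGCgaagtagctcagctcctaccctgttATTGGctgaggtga
Cdk1: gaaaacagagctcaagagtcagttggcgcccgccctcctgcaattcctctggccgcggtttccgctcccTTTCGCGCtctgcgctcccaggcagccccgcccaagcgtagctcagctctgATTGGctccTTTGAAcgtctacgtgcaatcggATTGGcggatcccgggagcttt
They lie at chr1:128359706-128359905 on the minus strand and chr10:69352939-69353112 on the minus strand, where Cdk1 stops after 174 bases at the start of a longer annotated transcript.

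Each Scramble library held 44950033 to 56697163 counts and each PERK_KO library 29006949 to 47530393, and 3 counts corresponded to 0.0515 to 0.100 CPM, the TMM-scaled count per 1000000 that is the unit of all levels below. Eif2ak3, which encodes PERK, measured 53.4, 56.4, 59.2 and 48.3 CPM in Scramble and 8.61, 7.73, 22.7 and 16.3 CPM in PERK_KO, in the order of Scramble libraries 2 to 5 and PERK_KO libraries 1 to 4. It was lower in every PERK_KO library (log2 difference -1.97, edgeR adjusted p = 0.00371). Mitochondrial genes took 3.71 to 4.50% of counts in Scramble and 5.22, 19.2, 13.9 and 6.89% in PERK_KO libraries 1 to 4. The label of c-Kit-positive precursors was set against markers: 19 pigment cell genes summed to 31131 to 31910 CPM in Scramble and 22034 to 26476 CPM in PERK_KO, while Ptprc, the pan-leukocyte phosphatase CD45, stood at 3.42 to 9.67 and 20.9 to 115 CPM. As a sum, 20 pan-leukocyte markers reached 316 to 376 CPM in Scramble and 580.3 to 1438 CPM in PERK_KO. Pigment cell markers were thus far above leukocyte markers in both groups, and the division genes below cannot be assigned to 1 cell type. Kit, which encodes c-Kit, averaged 196 ± 23.7 CPM in Scramble and 175 ± 37.8 CPM in PERK_KO (log2 difference -0.16, edgeR adjusted p = 0.559).

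Of the 40 genes, 5 fell in PERK_KO and none rose at an edgeR adjusted p of 0.05: Rrm1 among the replication genes, and Plk1, Bub1b, Ccnb1 and Kif11 among the mitosis genes. Those 12.5% stand against 6.13% of all 16662 genes called lower and 7.66% called higher (13.8% either way), and against 11.0% lower and 6.54% higher among the 7842 genes of like abundance. The lower share is therefore near that of equally abundant genes. Of the scalings tried, upper-quartile factors moved the split of calls most: higher calls made up 55.5% of all calls with TMM and 68.7% with these, and the members called then were Rrm1 and Plk1. In bulk RNA, fewer dividing cells and less RNA per dividing cell cannot be told apart.

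The differences were small and pointed mostly one way. The log2 difference was below 0 for 37 of 40 members, against 51.9% of all genes and 62.1% of the 7842 genes of like abundance. Its median was -0.14 over the replication genes, -0.22 over the mitosis genes, -0.02 over all genes and -0.08 over those of like abundance. No test was made of one list against the other or against other genes. All 4 PERK_KO libraries lay below all 4 Scramble libraries for 10 members (5 of each list) and above them for none, beside 11.1% and 10.2% of all genes. Every member's 95% interval lay above a log2 difference of -1, and 33 of 40 excluded a 1.5-fold decrease. For 13 members the interval lay below 0, which is the same result as an unadjusted edgeR p under 0.05. Such a p was found for 4448 of all 16662 genes, counted in either direction.

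**Figure D1:**
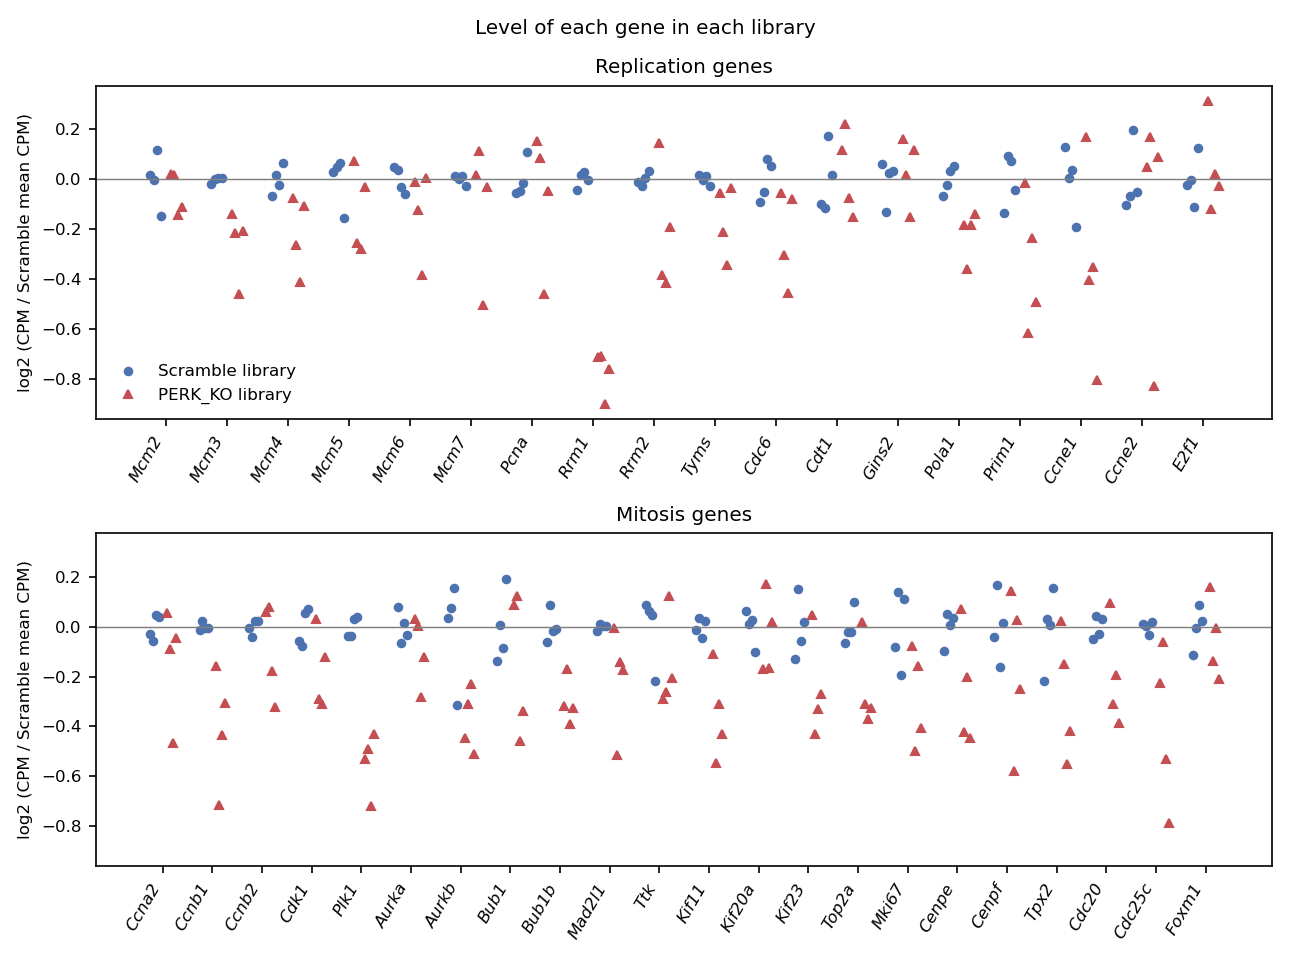
Level of each of the 40 genes in each library, as the log2 ratio of its CPM to the Scramble mean; blue circles are the 4 Scramble libraries (2 to 5, left to right) and red triangles the 4 PERK_KO libraries (1 to 4). Rrm1 and Plk1 are low in all 4 PERK_KO libraries, while in PERK_KO library 1 no more than 18 of the 40 genes lie below their Scramble mean.

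Among the replication genes the subunits of the Mcm2 to Mcm7 helicase, which unwinds the DNA ahead of the fork, differed little. In the same order of libraries, used throughout, Mcm3 measured 206, 209, 209.9 and 209.9 CPM in Scramble and 189.9, 180.1, 152 and 181 CPM in PERK_KO. Every PERK_KO library was below every Scramble library, and the closest to them was library 1. The log2 difference of Mcm3 was -0.25 (SE 0.08, edgeR adjusted p = 0.0746), past the threshold in none of the settings tried. Mcm4 measured 148.3, 157, 153 and 163 CPM in Scramble and 147.7, 129.5, 117 and 144 CPM in PERK_KO. Its groups did not overlap either, though library 1 lay only just below Scramble, and the difference was -0.21 (adjusted p = 0.169). Mcm2, Mcm5, Mcm6 and Mcm7 overlapped between the groups, with log2 differences of -0.05, -0.12, -0.12 and -0.08. None of the 6 helicase genes passed the test, and their median was -0.12. In PERK_KO library 3 Mcm7 stood at 101 CPM, well under the 146, 156 and 141 CPM of the others. It shares 321 exon bases with Ap4m1 on the opposite strand.

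The factors that load and open the helicase did not pass the test. Cdc6, the ATPase that helps load it, averaged 30.1 ± 1.72 CPM in Scramble and 25.9 ± 3.35 CPM in PERK_KO, and the groups overlapped. Cdt1, its loading partner, averaged 72.8 ± 6.89 CPM in Scramble and 74.7 ± 8.89 CPM in PERK_KO, and Gins2, a subunit of the complex that activates the helicase, 15.6 ± 0.923 CPM in Scramble and 16.01 ± 1.49 CPM in PERK_KO. Both had log2 differences slightly above 0 (0.04 and 0.04), with intervals of -0.20 to 0.27 and -0.27 to 0.35. Gins2 shares 2758 exon bases with Gse1 on the opposite strand, and the strand setting of the counting is not given, so its value is uncertain. At the fork, Pcna, the sliding clamp, measured 285, 286, 293 and 319.5 CPM in Scramble and 329, 314, 215 and 287 CPM in PERK_KO. PERK_KO libraries 1 and 2 lay among or above the Scramble libraries, library 4 among them, and library 3 far below, so that the log2 difference was -0.05 with an interval of -0.31 to 0.21. Its pseudogene Pcna-ps2 held 922 counts over all libraries against 105444 for Pcna.

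Pola1, the catalytic subunit of the priming polymerase, measured 69.3, 71.3, 74.2 and 75.1 CPM in Scramble and 63.8, 56.5, 63.8 and 65.8 CPM in PERK_KO. Its 4 PERK_KO libraries were close together and all under Scramble, with a log2 difference of -0.21 (edgeR adjusted p = 0.128). Prim1, the primase subunit, measured 45.7, 53.7, 52.8 and 48.8 CPM in Scramble and 49.8, 32.7, 42.7 and 35.8 CPM in PERK_KO. Here PERK_KO library 1 lay inside the Scramble range, and the difference of -0.32 did not pass (adjusted p = 0.143). Prim1 passed in 1 of the 20 alternatives only, the one without that library, its highest in PERK_KO, at -0.43 (adjusted p = 0.0370).

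The clearest change of the whole set was in Rrm1, the large subunit of ribonucleotide reductase, which converts ribonucleotides to deoxyribonucleotides (ENSMUSG00000030978.10, mm10 chromosome 7, 102441695 to 102469771). Rrm1 measured 263, 275, 277 and 271 CPM in Scramble and 165, 166, 145 and 159.9 CPM in PERK_KO. The groups were far apart, and PERK_KO library 1 was as low as the others. It fell by 0.77 on the log2 scale (SE 0.08, 95% interval -0.94 to -0.60, n = 4 and 4, edgeR adjusted p = 0.000228), to 0.587 of its Scramble level. Rrm1 was called under all 20 alternative settings. Rrm2, the small subunit of the same enzyme, measured 209.7, 208, 212 and 216 CPM in Scramble and 234, 162, 159 and 185 CPM in PERK_KO. PERK_KO library 1 was the highest of all 8 for Rrm2 and libraries 2 to 4 were below every Scramble library, so the groups overlapped, with a log2 difference of -0.19 (SE 0.12, adjusted p = 0.334). Rrm2 passed in 1 of the 20 alternatives only, the one without PERK_KO library 1, at -0.32 (edgeR adjusted p = 0.0363).

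The ratio of Rrm1 to Rrm2 counts was 1.25, 1.32, 1.31 and 1.25 in Scramble and 0.708, 1.02, 0.916 and 0.864 in PERK_KO. It separated the groups without overlap, at 1.28 ± 0.0355 and 0.878 ± 0.132 (SD, n = 4 each). Rrm1 lies on chromosome 7 and Rrm2 on chromosome 12. Genes there at or above the members' lowest level had median log2 differences of -0.34 and -0.17. The part of this in the ratio was not tested. The 5 other ratios of partners (Ccne1 to Ccne2, Ccnb1 to Ccnb2, Aurka to Aurkb, Bub1 to Bub1b and Pola1 to Prim1) overlapped. No gene of those ratios fell as far as Rrm1. The Rrm1 to Rrm2 ratio restates the levels of both genes given above and is not separate evidence. Tyms, thymidylate synthase, measured 80.5, 79.4, 80.2 and 78.1 CPM in Scramble and 76.5, 68.7, 62.7 and 77.7 CPM in PERK_KO. All 4 PERK_KO libraries were below Scramble, library 4 only just, and the difference of -0.16 did not pass (adjusted p = 0.315).

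The genes of S phase entry did not change by the test. Ccne1, cyclin E1, measured 30.6, 28.1, 28.7 and 24.5 CPM in Scramble and 31.5, 21.2, 21.97 and 16.01 CPM in PERK_KO, and its PERK_KO libraries spread from the lowest to the highest of all 8. Its log2 difference was -0.31 (adjusted p = 0.334), and -0.50 (adjusted p = 0.0491) without PERK_KO library 1, its highest. That was the only 1 of the 20 alternatives in which Ccne1 passed. Ccne2, cyclin E2, averaged 16.8 ± 1.67 CPM in Scramble and 15.9 ± 4.35 CPM in PERK_KO, with overlapping groups. E2f1, the factor named for this program, averaged 29.7 ± 2.05 CPM in Scramble and 30.9 ± 4.19 CPM in PERK_KO, with a log2 difference of 0.06 and an interval of -0.21 to 0.32. Ccne2 shares 609 exon bases with Ints8 on the opposite strand.

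In the mitosis list the largest fall was in Plk1, the Polo kinase that drives entry into mitosis and spindle assembly (ENSMUSG00000030867.7, mm10 chromosome 7, 122159439 to 122169873). Plk1 measured 128, 128, 134 and 135 CPM in Scramble and 90.8, 93.3, 79.7 and 97.4 CPM in PERK_KO. No library overlapped, and as for Rrm1, PERK_KO library 1 was low with the others. It fell by 0.54 on the log2 scale (SE 0.08, 95% interval -0.72 to -0.35, edgeR adjusted p = 0.00277). Leaving out any 1 library gave an adjusted p of 0.00275 to 0.0135. The Aurora kinases, which act at the spindle poles (Aurka) and the centromere (Aurkb), did not pass. Aurka averaged 58.9 ± 2.54 CPM in Scramble and 55.4 ± 5.36 CPM in PERK_KO, a log2 difference of -0.09. Aurkb measured 56.3, 57.9, 61.2 and 44.2 CPM in Scramble and 40.3, 44.4, 46.8 and 38.5 CPM in PERK_KO. Scramble library 5 lay among the PERK_KO libraries, and the difference was -0.37 (adjusted p = 0.0602). It passed without Scramble library 5 (adjusted p = 0.0300) or without PERK_KO library 3 (adjusted p = 0.0471).

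Of the cyclins and their kinase, Ccnb1 fell. Ccnb1, cyclin B1, the partner of Cdk1 at mitotic entry (ENSMUSG00000041431.16, mm10 chromosome 13, 100778650 to 100786570), measured 101, 103, 101 and 101 CPM in Scramble and 91.2, 61.9, 75.1 and 82.3 CPM in PERK_KO. Scramble libraries were nearly equal, and PERK_KO libraries were all lower but spread widely, from library 2 up to library 1. It fell by 0.39 on the log2 scale (SE 0.11, 95% interval -0.63 to -0.15, adjusted p = 0.0377). The call was lost without any 1 of the 4 Scramble libraries (adjusted p = 0.0851 to 0.103) and without PERK_KO library 2 (0.0589) or 3 (0.0644), where the log2 difference was -0.29 and -0.38. Ccnb2, the second B cyclin, averaged 102 ± 2.18 CPM in Scramble and 96.9 ± 12.8 CPM in PERK_KO, and Ccna2, cyclin A2 of S and G2 phase, 333 ± 11.99 CPM in Scramble and 306 ± 45.3 CPM in PERK_KO. Their groups overlapped, with log2 differences of -0.08 and -0.12.

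Cdk1, the kinase itself, averaged 113 ± 5.95 CPM in Scramble and 101 ± 11.4 CPM in PERK_KO, a log2 difference of -0.17 (adjusted p = 0.311). Cdc25c, the phosphatase that removes the brake on Cdk1, measured 28.9, 28.8, 28.1 and 29.1 CPM in Scramble and 24.6, 27.5, 19.9 and 16.6 CPM in PERK_KO. The groups did not overlap, but PERK_KO varied from just under Scramble to far under it, and the difference of -0.38 did not pass (adjusted p = 0.138). It passed in 1 of the 20 alternatives only, the one without PERK_KO library 2, its highest in PERK_KO, at -0.49 (adjusted p = 0.0472). Foxm1, the transcription factor of the mitotic genes, averaged 309 ± 17.7 CPM in Scramble and 301 ± 34.3 CPM in PERK_KO, a log2 difference of -0.04 with an interval of -0.25 to 0.16. Ccna2 and Cdc25c share 510 and 623 exon bases with genes on the opposite strand.

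Of the spindle checkpoint genes, 1 of 4 fell. Bub1b, the kinase-like BubR1 that binds Cdc20 (ENSMUSG00000040084.9, mm10 chromosome 2, 118598211 to 118641591), measured 91.98, 102, 94.8 and 95.3 CPM in Scramble and 77.01, 85.4, 73.2 and 76.5 CPM in PERK_KO. The groups were apart, with PERK_KO library 2 nearest to Scramble. It fell by 0.30 on the log2 scale (SE 0.08, 95% interval -0.48 to -0.12, adjusted p = 0.0348). Leaving out any 1 Scramble library ended the call (adjusted p = 0.0704 to 0.122), as did leaving out PERK_KO library 1 (0.0616), 3 (0.0505) or 4 (0.0614). Bub1, the kinetochore kinase of the same family, averaged 150.4 ± 15.4 CPM in Scramble and 138 ± 27.8 CPM in PERK_KO. Mad2l1, the checkpoint protein Mad2, measured 125, 128, 127 and 127 CPM in Scramble and 126, 88.7, 115 and 112 CPM in PERK_KO. Scramble was almost constant and PERK_KO library 1 lay within its range, and the difference was -0.20 (adjusted p = 0.262). Ttk, the Mps1 kinase at the top of the checkpoint, averaged 24.2 ± 2.27 CPM in Scramble and 21.9 ± 3.07 CPM in PERK_KO, and Cdc20, the activator that the checkpoint restrains, 65.7 ± 1.99 CPM in Scramble and 57.8 ± 8.87 CPM in PERK_KO. Both overlapped, with log2 differences of -0.15 and -0.19.

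Among the motors and spindle proteins Kif11, the Eg5 motor that pushes the spindle poles apart (ENSMUSG00000012443.4, mm10 chromosome 19, 37376403 to 37421859), measured 139, 144, 136 and 142 CPM in Scramble and 130.1, 96.1, 113 and 104 CPM in PERK_KO. The PERK_KO libraries were all lower, with library 1 closest to Scramble. It fell by 0.34 on the log2 scale (SE 0.10, 95% interval -0.55 to -0.13, adjusted p = 0.0384). The call was lost without any 1 Scramble library (adjusted p = 0.0781 to 0.111) and without PERK_KO library 2 (0.0763) or 4 (0.0807). Kif23, a motor of the central spindle, averaged 89.8 ± 7.60 CPM in Scramble and 76.3 ± 11.5 CPM in PERK_KO, with a log2 difference of -0.23. Kif20a, which works with it at cytokinesis, averaged 111 ± 5.27 CPM in Scramble and 108 ± 12.5 CPM in PERK_KO, and at -0.03 was the mitosis gene nearest to 0. It shares 1271 exon bases with Cdc23 on the opposite strand.

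Cenpe, the kinetochore motor, averaged 186 ± 8.52 CPM in Scramble and 158 ± 27.3 CPM in PERK_KO, and Cenpf, a large kinetochore protein, 274 ± 26.1 CPM in Scramble and 248 ± 52.9 CPM in PERK_KO. Tpx2, which activates Aurka on the spindle, averaged 262 ± 27.7 CPM in Scramble and 219 ± 39.4 CPM in PERK_KO. These 3 overlapped, with log2 differences of -0.23, -0.14 and -0.26. Top2a, the topoisomerase that untangles sister chromosomes, measured 587, 606, 606 and 658 CPM in Scramble and 623, 495, 475 and 491 CPM in PERK_KO. PERK_KO library 1 was as high as Scramble and libraries 2 to 4 were lower, and the difference of -0.24 did not pass (adjusted p = 0.140). Mki67, the proliferation antigen that coats mitotic chromosomes, measured 1585, 1849, 1467 and 1813 CPM in Scramble and 1593, 1187, 1505 and 1267 CPM in PERK_KO. The groups overlapped, and the difference was -0.27 (adjusted p = 0.149).

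**Figure D2:**
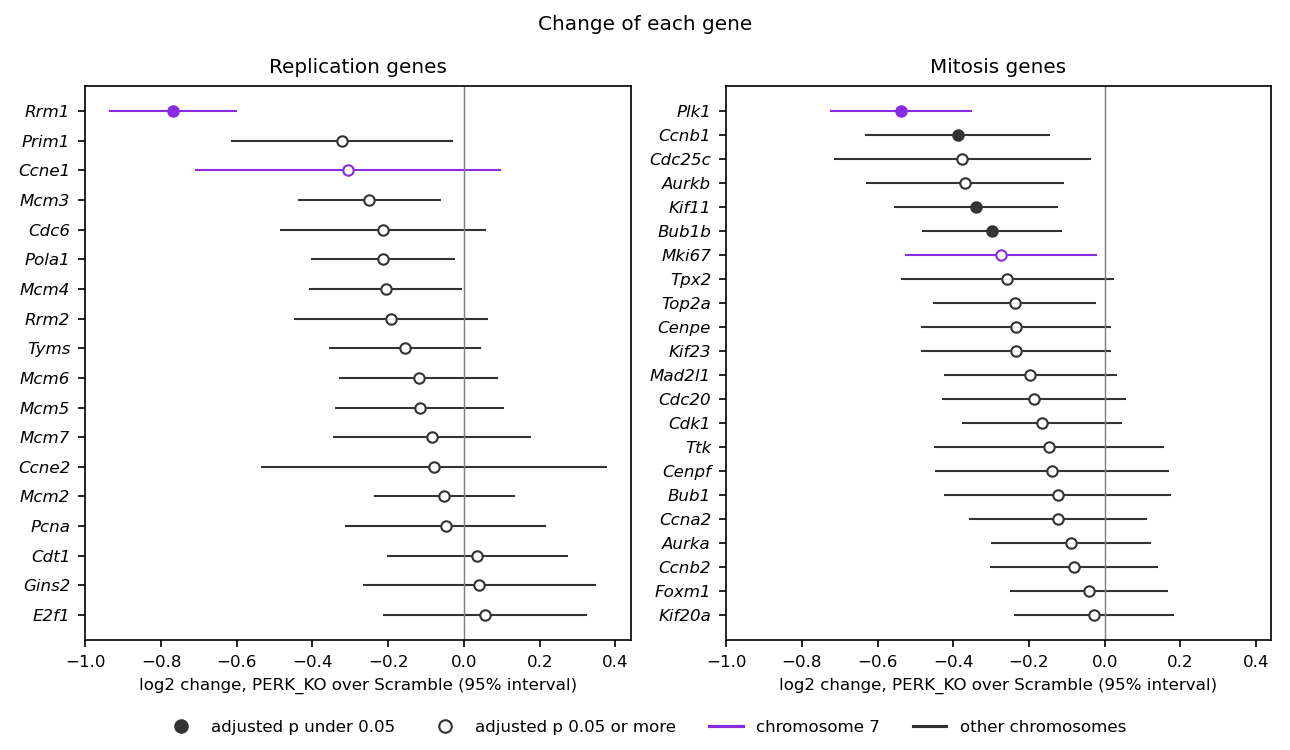
Log2 change of each gene in PERK_KO over Scramble from edgeR (circles) with its 95% interval (lines), replication genes left and mitosis genes right; filled circles passed an adjusted p of 0.05 and purple marks chromosome 7. The 5 filled circles are all left of 0, and Rrm1 at -0.77 and Plk1 at -0.54 lie apart from the others.

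Per kilobase of exon, Mki67 was the most abundant of the 40 genes in Scramble at 167 CPM per kilobase, followed by Pcna at 123, Ccna2 at 81.6 and Rrm2 at 76.3. Gins2 was the lowest at 3.80, with Ccne2 at 4.82 and Ttk at 4.92. These lengths join all annotated exons, so genes with long alternative exons are understated.

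**Figure D3:**
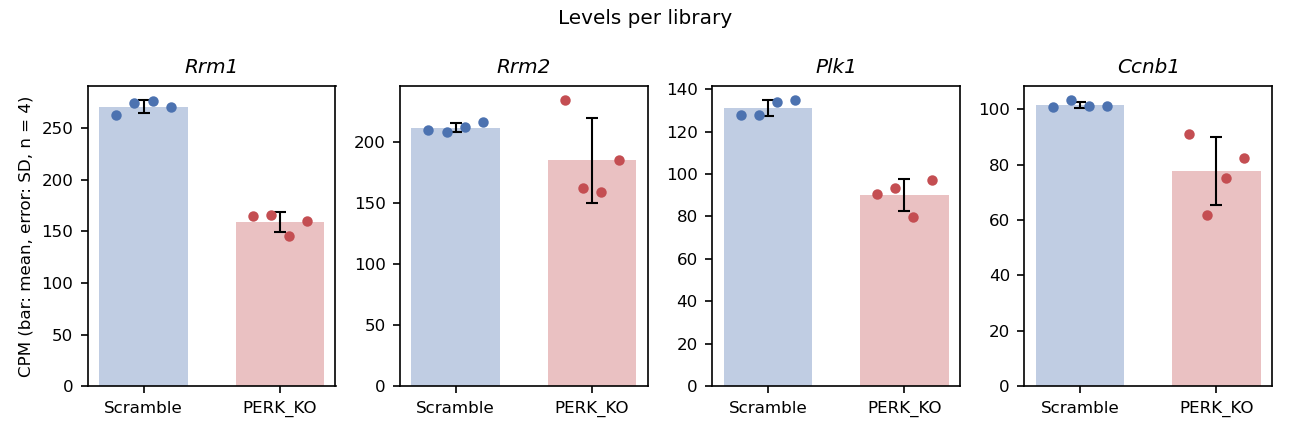
CPM of Rrm1, Rrm2, Plk1 and Ccnb1 in each library (points), with the group mean (bar) and SD (n = 4). For Rrm1 and Plk1 all PERK_KO points are clear of Scramble, for Ccnb1 they are lower but spread, and for Rrm2 PERK_KO library 1 at 234 CPM is above every Scramble library.

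The PERK_KO libraries differed among themselves. The median member stood at 1.01 of its Scramble mean in PERK_KO library 1 and at 0.836, 0.800 and 0.867 in libraries 2 to 4. By list, libraries 1 to 4 had replication medians of 1.01, 0.863, 0.776 and 0.938 and mitosis medians of 1.01, 0.812, 0.814 and 0.799. Library 3 was thus the lowest for replication, and libraries 2 to 4 were alike for mitosis. PERK_KO library 1 held the highest PERK_KO value for 25 of 40 members, and library 3 the lowest for 21. The coefficient of variation over 4 libraries had a median of 4.86% in Scramble and 13.2% in PERK_KO, while over all genes the medians were 13.2% and 25.6%. It was larger in PERK_KO for 38 of 40 members, beside 13662 of 16657 genes, so the wider spread was not particular to the members. Without PERK_KO library 1 the test called 10 members, all lower, beside 5.73% of 17384 genes called lower and 7.82% higher: Bub1b dropped out (0.0616), and Rrm2, Prim1, Ccne1, Top2a (0.0226), Cenpe (0.0287) and Kif23 (0.0452) came in, which makes 4 replication and 6 mitosis genes. Each gene that came in was called in this 1 of the 20 alternatives only. For each of them the library left out held the highest PERK_KO value.

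Rrm1 and Plk1 both lie on chromosome 7, where transcripts as a whole were lower. All 1249 tested genes there had a median log2 difference of -0.24, with 17.8% called lower and 6.65% higher. The 15413 tested genes elsewhere had a median of -0.01, with 5.19% lower and 7.75% higher. Among tested genes at or above the members' lowest level, the 508 on chromosome 7 had a median log2 difference of -0.34, and 39.4% were called lower and 4.13% higher. The 7371 elsewhere had a median of -0.06, with 9.13% lower and 6.77% higher. Relative to the Scramble mean, the chromosome 7 median was -0.37, -0.27, -0.39 and -0.34 in PERK_KO libraries 1 to 4 and between -0.01 and 0.01 in Scramble, so library 1 was as low as the others there. Of the 4 members on chromosome 7 (Rrm1, Plk1, Mki67 and Ccne1) 2 were called, and of the 36 elsewhere 3 were (8.33%): 0 of 16 replication genes and 3 of 20 mitosis genes.

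Close neighbours of the called genes were also examined. Within 1 Mb of Rrm1, 10 other genes had a median log2 difference of -0.38, and 3 of them were called lower. Around Plk1, 8 genes had a median of -0.36, and 3 were called lower. The neighbours of Ccnb1 (10), Bub1b (13) and Kif11 (7) had medians of 0.01, -0.14 and -0.10. With scaling factors set from each chromosome's own genes, an alternative added after the data were seen, Rrm1 was lower by 0.54 on the log2 scale (adjusted p = 0.00182), and Plk1 by 0.31 (adjusted p = 0.0308). Ccnb1 and Kif11 kept their calls, Bub1b missed the threshold at nearly the same difference (-0.25 against -0.30, adjusted p = 0.0609), Mad2l1 gained a call (0.0464), and the differences of Mki67 and Ccne1 shrank to -0.04 and -0.07.

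**Figure D4:**
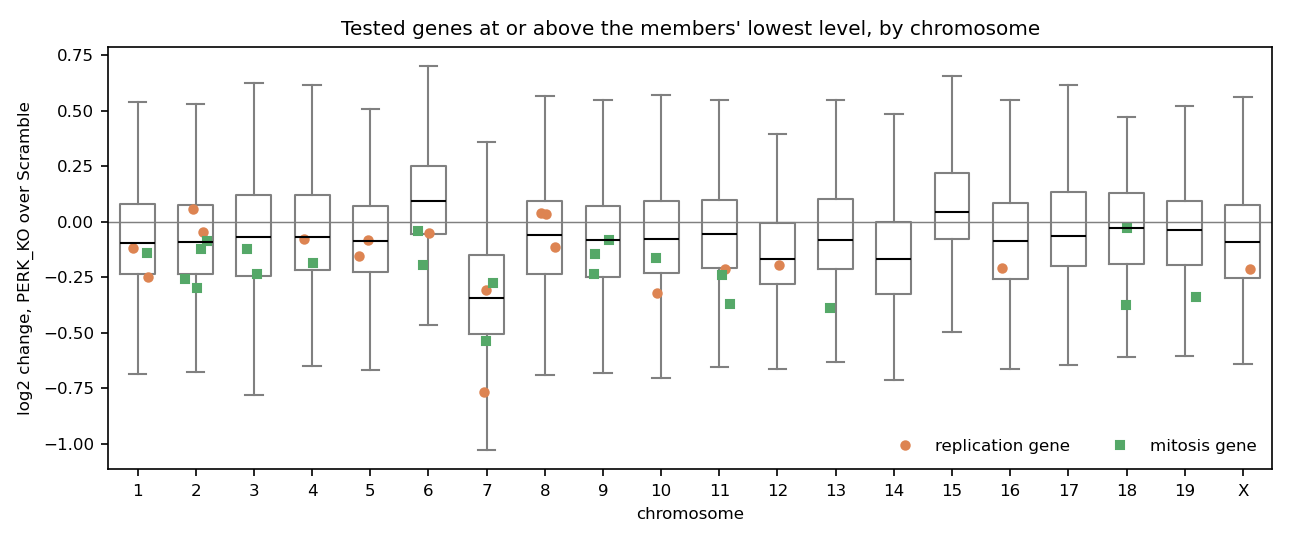
Log2 change of tested genes at or above the members' lowest level, by chromosome (box: quartiles, black line: median, whiskers: up to 1.5 box lengths), with the replication genes as orange circles and the mitosis genes as green squares. The chromosome 7 box lies lowest, with a median of -0.34, and Rrm1 and Plk1 lie below that median.

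The rest of the cell cycle was read from 13 further lists with 204 genes, of which 201 were tested. Of these, 31 fell and 4 rose, 15.4% and 1.99%, with a median log2 difference of -0.14, beside 6.13% and 7.66% of all genes and 11.0% and 6.54% of genes of like abundance. The lower share is not far from the latter. For replication, 2 of 18 genes of origin recognition and firing fell, Topbp1 (-0.28) and Mcmbp (-0.41). At the fork 4 of 22 fell, among them the catalytic subunits of the leading and lagging strand polymerases, Pole (-0.34) and Pold1 (-0.44), and the ligase Lig1 (-0.35). Of 11 genes of deoxynucleotide supply beside Rrm1, Rrm2 and Tyms, only Tk1, thymidine kinase, fell (-0.44, edgeR adjusted p = 0.0249). None of 9 genes of chromatin assembly passed. They include Dnmt1 and Atad2, at -0.18 and 0.13. Of 18 S-phase checkpoint and repair genes 3 fell, such as the nuclease Exo1 (-0.55, adjusted p = 0.00691) and the helicase Blm (-0.46), and Rad18, a ubiquitin ligase of stalled forks, rose by 0.33.

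The G1 genes moved in both directions: of 12 G1 cyclins, kinases and CDC25 genes 2 fell and 1 rose, and of 7 CDK inhibitors, 4 of them tested, 1 fell and 1 rose. Cdkn1a, which encodes the kinase inhibitor p21, measured 71.4, 64.3, 63.6 and 72.01 CPM in Scramble and 217, 267, 180.2 and 246 CPM in PERK_KO. Every PERK_KO library was far above every Scramble library. It rose by 1.75 on the log2 scale (SE 0.12, adjusted p = 2.39e-05), and was called under all 20 alternatives. Cdkn2c, the inhibitor p18 of Cdk4 and Cdk6, measured 36.5, 32.99, 43.99 and 37.4 CPM in Scramble and 21.4, 22.7, 21.5 and 22.7 CPM in PERK_KO. It fell by 0.77 (adjusted p = 0.00232), again without overlap. Cdk4, the G1 kinase, measured 217, 212, 209 and 212 CPM in Scramble and 147, 151, 155 and 159 CPM in PERK_KO. It fell by 0.48 (adjusted p = 0.00227), with both groups narrow. Cdk2 also fell (-0.46), while its relative Cdk6 rose by 0.66. Of 17 E2F, RB and DREAM genes, Tfdp1, the partner of E2F factors, fell by 0.36, and Rb1, which restrains them, rose by 0.44.

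For mitosis, 5 of 14 genes of the anaphase promoting complex fell, among them Ube2s (-0.40), Anapc7 (-0.35) and Anapc1 (-0.31). Of all genes of like abundance, 11.0% were called lower. Of 25 spindle and cytokinesis genes 7 fell, including Kif22 (-0.45), Prc1 (-0.37) and Dlgap5 (-0.31), and of 23 kinetochore genes 4 fell, including the checkpoint protein Bub3 (-0.49), the centromeric histone Cenpa (-0.51) and Zwilch (-0.45). The mitotic kinase Pbk fell by 0.41, alone of 11 entry kinases and phosphatases, and none of 17 condensin and cohesin genes passed, among them Rad21 and Smc4 at -0.10 and -0.14. Chromosome 7 held 16 of the 201 genes, of which 8 fell (50.0%), against 23 of 185 elsewhere (12.4%). Of all tested genes at or above the members' lowest level, 39.4% on chromosome 7 and 9.13% elsewhere were called lower. With scaling factors per chromosome 14 fell and 3 rose, beside 773 lower and 1249 higher of all 16662 genes. The 17 genes that no longer passed as lower were all 8 of chromosome 7, such as Bub3, Blm, Kif22 and Ube2s, and 9 of the 23 elsewhere, among them Topbp1, Zwilch, Pbk, Dlgap5 and Anapc1, and Rad18 on chromosome 6 no longer passed as higher. The number that fell was 9, 7, 7 and 12 without Scramble library 2, 3, 4 and 5. It was 18 and 20 without PERK_KO library 2 and 4. The number that rose was 1 without any 1 Scramble library. Of 17264 to 17371 genes tested in those fits, 492, 439, 554, 590, 907 and 933 were lower in the same order. With all libraries 1022 of 16662 were lower and 1277 higher. Higher calls over all genes were 791, 639, 874 and 771 without Scramble library 2, 3, 4 and 5.

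**Figure D5:**
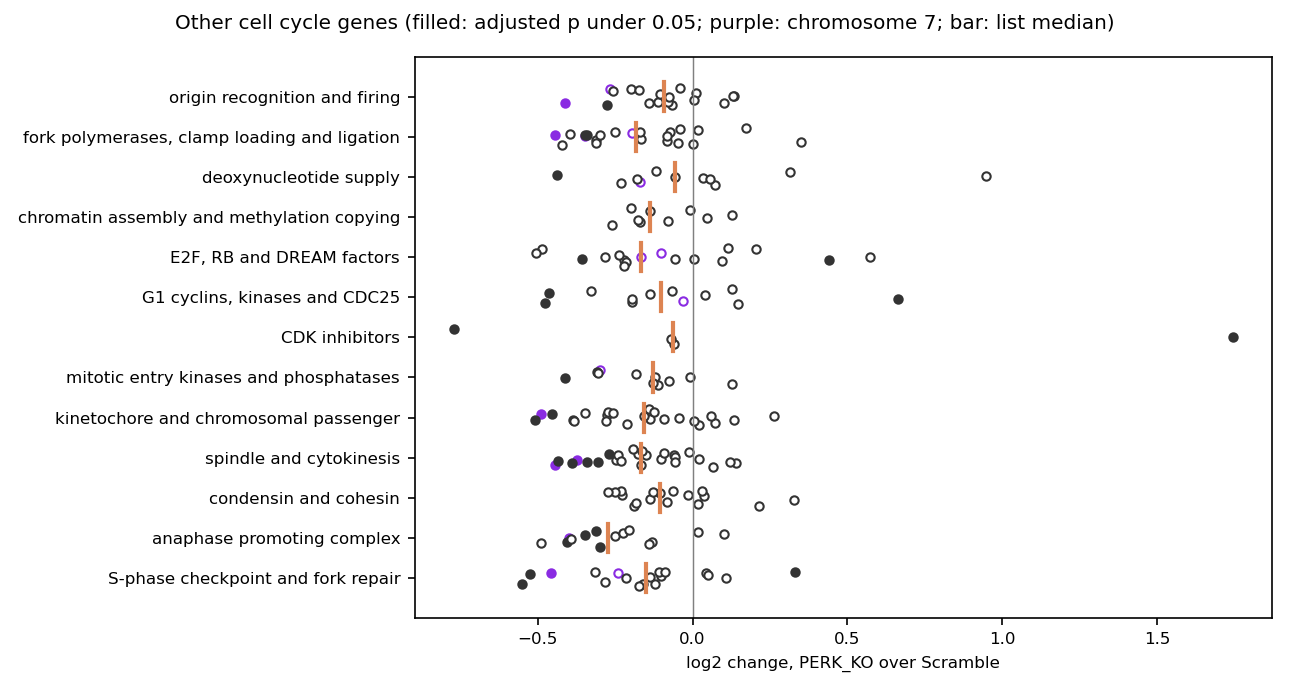
Log2 change of 201 further cell cycle genes in PERK_KO over Scramble, by list; filled circles passed an edgeR adjusted p of 0.05, purple marks chromosome 7 and the orange bar is the list median. All 13 list medians are below 0, and Cdkn1a at 1.75 is the point farthest to the right.

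Markers of other cell types also differed between the groups. The summed level of the 18 replication genes was 2320.5 ± 32.6 CPM in Scramble and 2038 ± 205 CPM in PERK_KO, and that of the 22 mitosis genes 5052 ± 261 and 4329 ± 444 CPM (SD, n = 4 each). Over the same libraries the 19 pigment cell markers summed to 31458 ± 327 and 24703 ± 1924 CPM, and 13 of them fell. The 20 pan-leukocyte markers ran from 316 to 376 CPM in Scramble and from 580.3 to 1438 CPM in PERK_KO, and 17 rose. Mast cell markers ran from 107 to 261 and from 799.7 to 3254 CPM (11 of 12 rose), blood progenitor markers from 268 to 347 and from 321 to 593 CPM (7 of 13 rose), and epithelial markers from 8.86 to 12.3 and from 114 to 280.3 CPM (12 of 14 rose). Of the endothelial markers 0 of 14, of the fibroblast and mural markers 1 of 12 and of the erythroid markers 0 of 6 rose, and none fell. Krt8 and Epcam, defining genes of epithelium, were at 0 to 1.24 and 0.135 to 0.542 CPM in Scramble. PERK_KO library 1, with the highest division gene levels of its group, had the lowest leukocyte (580.3 CPM) and mast cell (799.7 CPM) sums of the 4. PERK_KO library 3, with the lowest replication levels, had the second lowest leukocyte sum (592 CPM) and a mitochondrial share of 13.9%. The mitosis sums were 4975, 4020, 4265 and 4056 CPM in PERK_KO libraries 1 to 4, so library 3 was second highest there. Libraries 2 and 4, lowest for mitosis, had leukocyte sums of 797 and 1438 CPM. With both mitochondria-rich libraries, PERK_KO 2 and 3, left out, Rrm1 and Plk1 fell by 0.74 and 0.48 (adjusted p = 0.00167 and 0.00871), Bub1b kept its call (adjusted p = 0.0300), Aurkb gained one (0.0496), and Ccnb1 and Kif11 no longer passed (0.0825 and 0.107). That made 3 mitosis genes and 1 replication gene, beside 7.21% of all genes called lower and 7.2% higher, and the medians were -0.03 for the replication genes and -0.13 for the mitosis genes. The part of cell composition in the small differences was not tested.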

How the data were processed

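The authors deposited a table of raw read counts per gene for 8 RNA-seq libraries, used here as deposited; their normalised table was not used. Libraries were made with a strand-specific NuGEN kit from 100 ng of RNA and read as 105-base pairs, per the labels' protocols. The submitters' processing notes name bcl2fastq, STAR 2.5.3a, HTSeq 0.6.1, DESeq2 1.30.1 and the mm10 genome; their settings, the strand setting of the counting included, are not given in the sources used here. Gene names and positions come from GENCODE M21, which matched all 55450 identifiers, and promoter windows from RefSeq.

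Groups follow the sample titles, 4 Scramble (libraries 2 to 5) against 4 PERK_KO (libraries 1 to 4). Counts were filtered with filterByExpr (16662 genes kept), scaled by TMM and tested across all genes with the quasi-likelihood F test of edgeR 4.0.16 (R 4.3.3), with Benjamini-Hochberg adjustment and a threshold of 0.05. Standard errors are the log2 change over the root of F, and CPM uses the TMM library sizes. The code was tested on simulated counts. Alternatives were 17 planned settings (among them limma 3.58.1 with voom, DESeq2 1.42.0, other scalings and filters, a replicate block and each library left out) and 3 added after the data were seen. The members and the lists were chosen with earlier results of these data known. All members are named; of each related list, the called genes with the lowest p are named, 3 at most, and where none was called its 2 genes of highest mean level.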

Additional observations from a re-analysis of the deposited data

Results flagged for a closer look

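In 9 of 148 groups of 4 libraries that were checked, 1 library stood apart from the other 3, with a gap to the nearest of them, as a share of the group's range, above Dixon's 95% critical value; chance gives this in about 1 group in 20. Among the members, Mcm5 stood at 104 CPM in Scramble library 5 (118 to 120.5 in the others) and Ttk at 20.8 CPM in the same library (up to 25.7). Ccne2 stood apart in both groups, at 19.3 CPM in Scramble library 4 (15.7 to 16.3) and at 9.47 CPM in PERK_KO library 3 (17.4 to 19.0). Top2a stood at 623 CPM in PERK_KO library 1 (475 to 495). Among the related genes, Cdk2 stood at 243 CPM in PERK_KO library 4 (336 to 353) and Pbk at 50.04 CPM in PERK_KO library 1 (35.2 to 37.5). Cdk6 stood at 27.7 CPM in Scramble library 4 (36.3 to 37.5) and Cenpa at 62.0 CPM in Scramble library 3 (65.5 to 66.2).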

How the results depend on the processing

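Rrm1 was called lower in all 20 alternatives and Plk1 in 19. The medians of the replication, mitosis and related lists stayed below 0 throughout, at -0.21 to -0.03, -0.29 to -0.13 and -0.21 to -0.06. The counts of called genes moved more, and the cause was not tested. Among related genes, DESeq2 called 7 higher, library totals alone 1 higher, RLE factors 18 lower, upper-quartile factors 9 lower, leaving out PERK_KO 2 and 3 together 17 lower, and factors per chromosome 14 lower. The mitosis genes called lower were 1 each with RLE factors, upper-quartile factors and the stricter filter. Over all genes, the main fit called 1022 lower. RLE factors called 767, upper-quartile factors 653 and factors per chromosome 773 of the same 16662 genes lower. The stricter filter called 809 of 13243 lower, and leaving out PERK_KO 2 and 3 together 1307 of 18133. Higher calls numbered 1277 in the main fit, 1874 with DESeq2 and 1065 with library totals alone. Leaving out 1 library, which leaves fewer samples, gave 439 to 1244 lower and 639 to 1372 higher of all genes, 1 to 4 replication and 1 to 6 mitosis genes lower, and 7 to 32 related genes lower and 1 to 5 higher.

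With the replicate number as a block, 81 genes were lower and 127 higher. Of the mitosis genes 0 were lower, and of the related genes 0 were lower and 1 higher. Rrm1 kept its call (-0.79, edgeR adjusted p = 0.0343) and Plk1 did not (adjusted p = 0.0714). PERK_KO library 1 and Scramble library 5 had no partner of the same number. The group difference in that fit therefore rested on the libraries numbered 2, 3 and 4, which are fewer samples. Whether equal numbers mark paired libraries is not known from the sample titles. Deviations of same-numbered libraries correlated at -0.00906, 0.0982 and -0.204 for numbers 2, 3 and 4. With so few libraries these values cannot settle it.

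Some members near 0, and Rad21 of the related genes, changed sign. Upper-quartile factors gave log2 differences of 0.0062 for Mcm2, 0.0064 for Pcna, 0.027 for Kif20a and 0.017 for Foxm1. Kif20a was also at 0.013 with DESeq2 and with RLE factors and at 0.0062 with the stricter filter. Library totals alone gave -0.043 for Cdt1, -0.029 for Gins2 and -0.0095 for E2f1. Without PERK_KO 2 and 3, Mcm5 was at 0.023, Pcna at 0.057, Cdt1 at -0.011, Ccne2 at 0.070, Ccna2 at 0.0066 and Rad21 at 0.016. With 1 library left out, the ranges were -0.15 to 0.031 for Mcm7, -0.11 to 0.064 for Pcna, -0.025 to 0.094 for Cdt1, -0.0041 to 0.097 for Gins2, -0.17 to 0.10 for Ccne2, -0.032 to 0.12 for E2f1, -0.095 to 0.025 for Kif20a and -0.11 to 0.0066 for Foxm1. The cause of these changes of sign was not tested.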

Other observations

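The lower level of chromosome 7 transcripts, which include Rrm1 and Plk1, was spread along the chromosome. In consecutive bins of 20 Mb the median log2 difference of genes at or above the members' lowest level was -0.38, -0.35, -0.39, -0.23, -0.35, -0.34, -0.38 and -0.19, over 73, 87, 61, 28, 56, 79, 90 and 34 genes, of which 31, 31, 31, 7, 25, 32, 36 and 7 were called lower. Among the melanocyte markers, the 4 on chromosome 7 (Tyr, the rate-limiting enzyme of pigment synthesis, with Oca2, Trpm1 and Rab38) were all called lower, with a median of -0.97, and 9 of the 15 elsewhere were, with a median of -0.43. Chromosome 6 differed in the other direction, with a median of 0.09 and 57 genes higher against 14 lower of 428, and chromosome 15 had a median of 0.04. All other chromosomes had medians between -0.17 and -0.03. These values are descriptions of the libraries, and DNA was not sequenced.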
